A study of Homo sapiens with 12 samples.

Results

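Protein tyrosine phosphatases take phosphate off tyrosine, and dual-specificity phosphatases (DUSPs) also take it off serine and threonine. The screen targeted 60 genes whose symbols carry the family names PTPN, PTPR or DUSP followed by a number or letter, out of 20915 gene names in the count table, and these held 359 of the 121411 gene-targeting sgRNA entries. By that name rule the non-receptor (PTPN) class had 16 genes with 95 sgRNAs, the receptor (PTPR) class 20 genes with 120, and the DUSP class 24 genes with 144. There were 6 sgRNAs for 59 of the genes and 5 for PTPN12. The rule rests on symbols alone, so relatives with other symbols are outside it.

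The screen was run in 2 HER2-amplified lines, N87 from gastric cancer and OE19 from an adenocarcinoma where oesophagus and stomach meet, both transduced with the GeCKO V2 knockout library at a multiplicity of infection of about 0.3. All cells then had 7 days of puromycin, at 0.75 µg/mL for N87 and 1.5 µg/mL for OE19. Baseline libraries were made at that point, and vehicle (DMSO) and lapatinib libraries after a further 14 days, with lapatinib, which blocks the kinase activity of EGFR and HER2, at 0.5 µM for N87 and 1 µM for OE19. Each line had 2 separate infections and each of the 6 conditions 2 libraries, most likely 1 per infection, so every comparison rests on 2 libraries against 2. The values are counts of sgRNAs in genomic DNA, which follow the cells that carry them and do not measure expression, so the identity of the lines could not be checked against marker genes here.

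Receptor tyrosine kinases such as HER2 signal by phosphorylating tyrosines on themselves and on docking proteins, and tyrosine phosphatases reverse many of these marks. SHP2, encoded by PTPN11, is the best known exception in direction, since it is needed for full activation of Ras and ERK below most receptor kinases. The MAP kinase phosphatases among the DUSPs inactivate ERK, JNK and p38, and several of them are induced by ERK signalling itself.

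Total counts lay between 13105805 (OE19 lapatinib, replicate 1) and 33743599 (N87 baseline, replicate 1), and the median raw count of a phosphatase sgRNA from 60 to 234 in the same libraries. On normalized counts, which divide each library by a median-of-ratios size factor, the median over phosphatase sgRNAs lay between 143 and 166 in all 12 libraries. The only phosphatase sgRNAs at a count of 0 were 4 in N87 lapatinib replicate 1 and 2 in replicate 2. Over the sgRNAs, the log2 difference between the replicates of a condition had an SD of 0.27 in N87 and 0.26 in OE19 at baseline, 0.41 and 0.48 under vehicle, and 0.76 and 0.69 with lapatinib. The lapatinib libraries were therefore the least alike of the replicate pairs in both lines. Counts come from PCR products without molecular identifiers, so intervals from counting alone would understate the error, and none is given for the group values.

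The phosphatases as a whole kept their share of the library in N87 and had a lower share in OE19 with lapatinib. They took 0.306% ± 0.0002 of all counts (SD, n = 2) in N87 at baseline, 0.312% ± 0.006 under vehicle and 0.307% ± 0.001 with lapatinib. In OE19 the share was 0.303% ± 0.001 at baseline, 0.306% ± 0.001 under vehicle and 0.268% ± 0.020 with lapatinib. With the 100 most abundant sgRNAs of each library left out, the OE19 lapatinib share was 0.304% ± 0.002, close to the other conditions. By class, the receptor genes took 0.109% ± 0.001 under vehicle and 0.0856% ± 0.011 with lapatinib in OE19, the DUSPs 0.121% ± 0.002 and 0.101% ± 0.014, and the non-receptor genes 0.0762% ± 0.002 and 0.0813% ± 0.006. In the OE19 lapatinib libraries 2 PTPN1 sgRNAs, HGLibB_40380 and HGLibB_40381, held 41.9% and 21.1% of the non-receptor counts, and without them that share was 0.0702% ± 0.0017 under vehicle and 0.0552% ± 0.0081 with lapatinib. No test was made of these shares, since 2 libraries against 2 cannot give a small permutation p.

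During 14 days without drug, sgRNAs against PTPN11 fell in both lines, and those against PTPN23 in OE19. PTPN11 encodes SHP2 (chromosome 12, 112856155 to 112947722, plus strand, GENCODE on GRCh37). PTPN23 encodes HD-PTP, which works with the ESCRT machinery that sorts activated receptors into endosomes for degradation (chromosome 3, 47422501 to 47454925, plus strand). Where in each gene the sgRNAs cut was not analysed here. These 2 were the only phosphatases past the gene threshold (adjusted p under 0.05) in any comparison, and both are non-receptor enzymes.

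The mean normalized count of the 6 PTPN11 sgRNAs in N87 was 130 and 122 in the baseline libraries, 91.1 and 48.8 under vehicle, and 29.3 and 37 under lapatinib. In OE19 the baseline libraries had 127 and 151, the vehicle libraries 77.3 and 90.4, and the lapatinib libraries 90.4 and 86.4. Both vehicle libraries thus lay below both baseline libraries in each line, and all 6 sgRNAs had log2 fold changes below 0 in each line. The median over the sgRNAs fell by 0.98 on the log2 scale in N87 (SD over sgRNAs 0.24, edgeR with robust rank aggregation, adjusted p = 0.0124) and by 0.94 in OE19 (SD 0.46, adjusted p = 0.0146). The sgRNAs ranged from -1.06 to -0.49 in N87 and from -1.60 to -0.25 in OE19. The difference between the lines was -0.11 at the gene median (SD over sgRNAs 0.29, adjusted p = 1 for the interaction). Among the phosphatases the 2 N87 vehicle libraries differed most for this gene, by 0.92 on the log2 scale at its median sgRNA, and replicate 2 was the lower. Without that replicate the N87 median was -0.55 with an adjusted p of 0.678, and without replicate 1 the call stayed. In OE19 the call was lost without vehicle replicate 1 (median -0.67, adjusted p = 0.189) and without vehicle replicate 2 (-1.14, 0.0639), when the control guides set the scale (-1.13, 0.189) and in a fit of all 12 libraries (-0.94, 0.171).

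The 6 PTPN23 sgRNAs averaged 151 and 178 normalized counts in the OE19 baseline libraries, 88.4 and 96.5 under vehicle, and 120 and 101 under lapatinib. In N87 the baseline averages were 109 and 89.6, the vehicle averages 81.9 and 61.5, and the lapatinib averages 63.1 and 56.9. The vehicle values lay below the baseline values in both lines, by a smaller margin in N87, and again all 6 sgRNAs were below 0 in each line. The OE19 median fell by 0.66 on the log2 scale (SD over sgRNAs 0.69, adjusted p = 0.0223), with 2 of the sgRNAs past the sgRNA threshold at -1.97 and -1.54. That call held in all 12 alternatives, with adjusted p from 0.0128 to 0.0492. In N87 the median was -0.55 (SD 0.22, adjusted p = 0.0720), which missed the threshold, and the adjusted p ran from 0.0295 to 1 over the alternatives. The interaction of line and time gave -0.24 for PTPN23 (SD 0.53, adjusted p = 0.518), so the lines were not shown to differ.

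**Figure D1:**
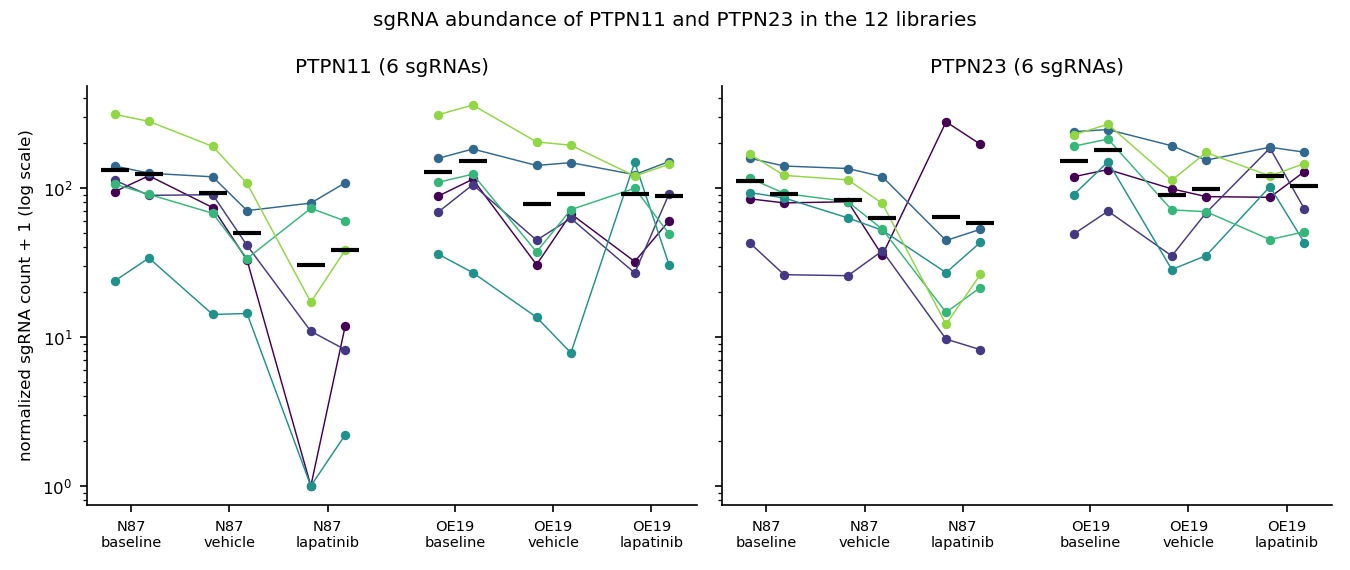
Normalized counts plus 1 (log scale) of the 6 sgRNAs of PTPN11 and of PTPN23 in the 12 libraries, with the line and condition on the horizontal axis and replicate 1 to the left of replicate 2; each coloured line is 1 sgRNA and the black bars are means over sgRNAs plus 1. The PTPN11 means run from 130 and 122 at N87 baseline to 29.3 and 37 with lapatinib, while in OE19 vehicle and lapatinib means lie between 77.3 and 90.4.

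Against the whole screen, 1 of 60 phosphatases was lower in N87 and 2 of 60 in OE19, where 2.34% and 1.53% of all genes were. None was higher in either line, where 0.0574% of all genes were in N87 and 0% in OE19. At an unadjusted p under 0.05 there were 4 and 2, beside 1067 and 1042 of all 20894 genes. With DESeq2 in place of edgeR again none passed after adjustment. Of 359 phosphatase sgRNAs none passed in N87 (0% of all sgRNAs were higher and 0.0399% lower), with 9 higher and 11 lower at an unadjusted p under 0.05 and 1 lower by DESeq2. In OE19 3 were lower, 2 of PTPN23 and 1 of PTPN11, beside 0.893% of all sgRNAs, and none was higher beside 0.0114%, with 18 higher at an unadjusted p under 0.05 and none by DESeq2. Both the number and the direction of these sgRNA calls depended on single libraries. Calls in both directions appeared in each line when a vehicle library was left out, and calls among all sgRNAs rose in those fits. The OE19 calls were lost without baseline replicate 2. A fit without 1 library has 1 library in a group, so its counts are not given. With the replicate number, which most likely marks the infection, as a block, 3 phosphatase sgRNAs were lower in N87, beside 2659 of all 122948. In OE19 2 were higher and 8 lower with the block, beside 735 and 3796 of all 122790. The counts of phosphatase genes are near the shares in the whole screen.

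No other phosphatase passed without drug. Leaving aside PTPN11 and PTPN23, the lowest medians in N87 were those of DUSP3, a small atypical DUSP (-0.26, SD over sgRNAs 0.19) and in OE19 of DUSP4, a nuclear MAP kinase phosphatase (-0.35, SD 0.44, adjusted p = 0.505). The highest in N87 were PTPN12, known for its action on focal adhesion proteins (0.29, SD 0.18), PTPRN (0.19) and PTPN3 (0.18), and in OE19 DUSP21 (0.28), DUSP10 (0.27) and DUSP19 (0.25). For DUSP4, the mean normalized count in OE19 was 199 and 197 at baseline and 153 and 158 with vehicle, while in N87 it was 200 and 193, then 178 and 211. The OE19 groups did not overlap and the N87 groups did, but the difference of the lines was -0.31 (SD over sgRNAs 0.63) with an adjusted p of 0.612.

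Class medians stood close to those of all genes in the drug-free comparison. In N87 they were 0.07 for PTPN, 0.02 for PTPR and 0.04 for DUSP genes, beside 0.02 for all genes, and in OE19 0.03, 0.10 and 0.04 beside 0.01. Above 0 lay 73.3% of the phosphatases in N87 and 68.3% in OE19, against 57.2% and 53.6% of all genes. The sign of such small values depends on the scale: with the control guides as reference the medians of all genes moved to -0.07 in N87 and -0.17 in OE19, and those of the 3 classes were all below 0. Across the 60 genes the N87 and OE19 medians, which share no library, had a Pearson r of 0.78 and a Spearman rho of 0.26. Without PTPN11 and PTPN23 the r over 58 genes was 0.28, so the relation rests mostly on those genes, and the points share the same sgRNAs in both lines.

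**Figure D2:**
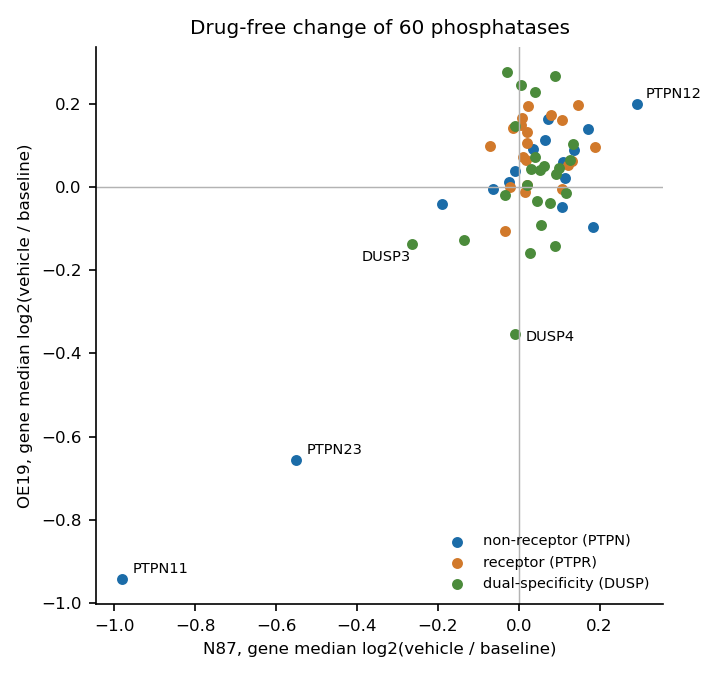
Median log2 fold change of vehicle over baseline for the 60 phosphatases, N87 on the horizontal and OE19 on the vertical axis, 1 point per gene coloured by class. PTPN11 (-0.98 and -0.94) and PTPN23 (-0.55 and -0.66) stand apart at the lower left, and DUSP4 is low in OE19 (-0.35).

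The interaction across lines called no phosphatase gene in the drug-free change. All genes were called in 0.0383% (OE19 above N87) and 0.191% (below), and all sgRNAs in 0% and 0.00325%. At an unadjusted p under 0.05, edgeR and DESeq2 each gave 0 phosphatase genes above and 4 below, which for edgeR were PTPN18, PTPN23, PTPRH and DUSP4. Of all 20894 genes, edgeR gave 1087 above and 1126 below, and DESeq2 1071 and 1134. No phosphatase sgRNA passed with either tool, and 2 above and 13 below had an unadjusted p under 0.05 in edgeR.

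Genes that act beside these enzymes gave few calls. Of 8 genes for SHP2 docking and Ras activation, SHC1, an adaptor that links receptor kinases to Grb2, was lower in N87 without drug (median -0.79, SD over sgRNAs 0.24, adjusted p = 0.000771), a call lost without N87 baseline replicate 2 (0.167). Its OE19 median was -0.40 (adjusted p = 1). The median of the 8 was -0.13 in N87 and -0.23 in OE19, beside 0.02 and 0.01 for all genes, and 2 of 8 were above 0 in each line, beside 57.2% and 53.6% of all genes. The calls in these lists stand beside the 2.34% (N87) and 1.53% (OE19) of all genes called lower. Of the 10 MAP kinases that DUSPs act on, none was called in any comparison. Of 17 other cysteine-dependent phosphatases, PTPMT1, the mitochondrial phosphatase of cardiolipin synthesis, was lower in OE19 (-1.43, SD over sgRNAs 0.78, adjusted p = 0.000239) and differed between lines (-1.04, SD 0.61, adjusted p = 0.000886). In N87 its median was -0.30 (adjusted p = 0.0878).

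With lapatinib, no phosphatase gene passed in either line, in any of the alternatives. In N87 0% of all genes were higher and 0.0144% lower, and in OE19 0.0957% were higher and 0% lower. At an unadjusted p under 0.05 there were 3 phosphatase genes higher and 4 lower in N87, and 3 and 3 in OE19. Beside these stood 1062 and 1081 of all 20885 genes in N87, and 1143 and 1121 of all 20890 in OE19. With DESeq2 the phosphatase counts were 1 and 4, and 2 and 2, beside 1088 and 1061, and 1157 and 1148 of all genes. Many individual sgRNAs passed their own test in N87. There 114 of 357 tested phosphatase sgRNAs were higher and 108 lower, beside 31.2% and 29.9% of all sgRNAs, and 52.3% of the control guide entries, which target no gene, also passed. The phosphatase share is thus that of the library as a whole. The split of calls follows the scale, with 75 higher and 155 lower by total counts and 88 and 128 when the control guides set it.

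In OE19 6 of 359 phosphatase sgRNAs were higher and 0 lower, beside 2.33% and 0.0795% of all sgRNAs and 2.21% of control guide entries. At an unadjusted p under 0.05, 20 were lower, and DESeq2 also called 0 lower. The phosphatase calls were lost when a vehicle library was left out and rose in number when a lapatinib library was. Calls among all sgRNAs fell and rose in the same fits, which have 1 library in a group, so their counts are not given. DESeq2 called 10 phosphatase sgRNAs higher, beside 3701 of all 121969. A fit of all 12 libraries called 25 higher and 2 lower, beside 7644 and 2023 of all 121969.

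In N87 sgRNAs against the same phosphatase went opposite ways. For 45 of the 60 genes at least 1 sgRNA was called higher and at least 1 lower, a share of 75% beside 73.4% of all genes. The median SD over the sgRNAs of a phosphatase was 1.25 on the log2 scale in N87 with lapatinib and 0.46 in OE19, against 0.18 and 0.28 in the drug-free comparisons. In N87 PTPN21 and PTPRH had all of their sgRNAs on the same side of 0, which is 3.33% of the phosphatases beside 5.17% of all genes. In OE19 DUSP3, DUSP5, DUSP23, PTPRC and PTPRZ1 did, 8.33% beside 7.65%, so these shares are near the background.

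**Figure D3:**
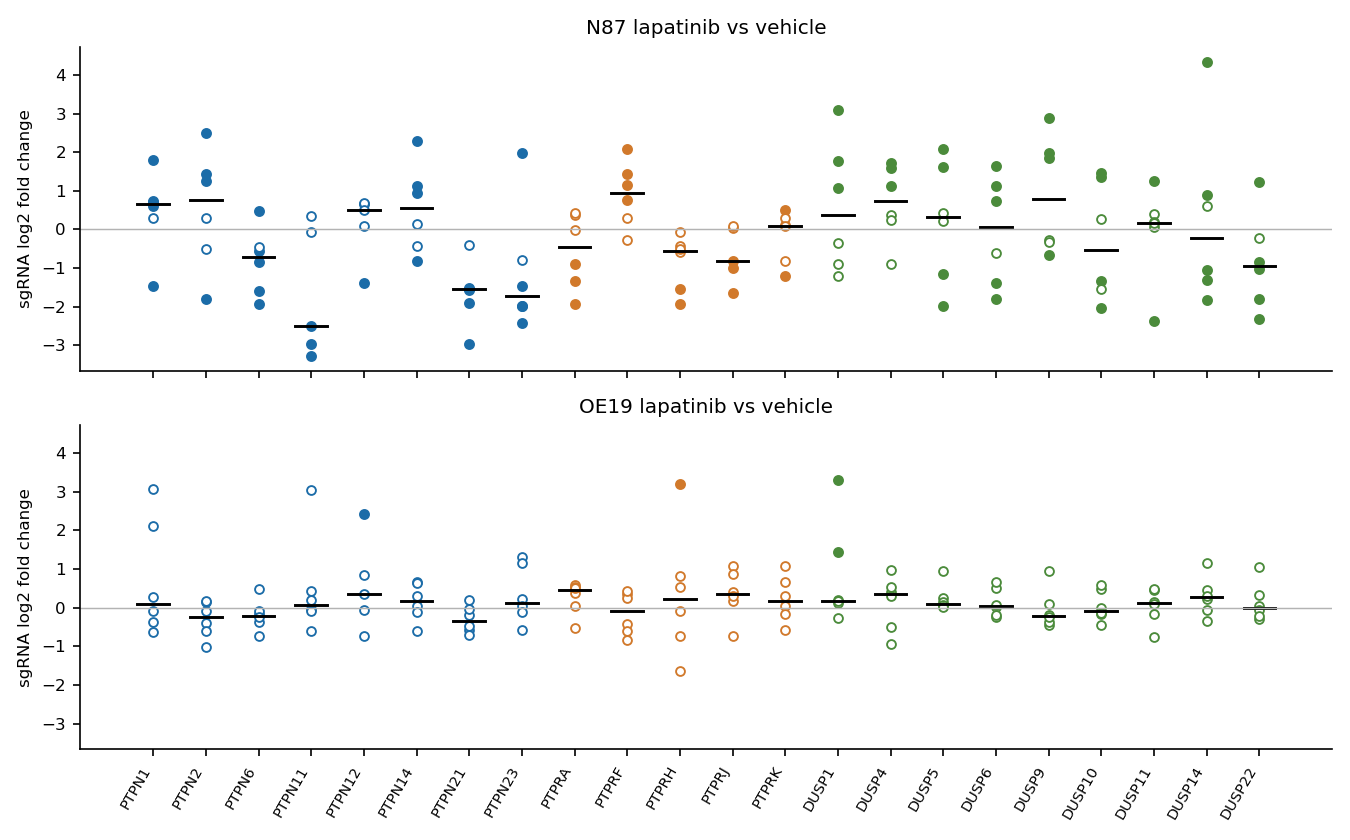
Log2 fold change of lapatinib over vehicle for each tested sgRNA of 22 named phosphatases in N87 (top) and OE19 (bottom), blue for non-receptor, orange for receptor and green for dual-specificity genes. Filled points passed the sgRNA threshold of 0.05, open points did not, and black bars are gene medians; most genes have sgRNAs on both sides of 0 in N87, and the points lie closer together in OE19.

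Among the non-receptor enzymes, PTPN11 had the lowest N87 median of all 60 phosphatases with lapatinib, -2.51 (SD over sgRNAs 1.70, 5 sgRNAs tested, adjusted p = 1). The counts behind its 3 lowest tested sgRNAs were small with lapatinib. sgRNA HGLibA_47720 had 94 and 38 counts under vehicle and 0 and 9 with lapatinib, HGLibA_47721 had 115 and 48, then 8 and 6, and HGLibB_40385 had 244 and 127, then 13 and 31. These 3 were each past the sgRNA threshold (adjusted p = 0.00628, 0.00164 and 0.000300), whereas HGLibA_47722 (-0.07) and HGLibB_40384 (0.34) were not. The remaining sgRNA, HGLibB_40383, had 17 and 16 counts under vehicle and 0 and 1 with lapatinib, and was left out by the minimum of 40 counts. In OE19 the PTPN11 median was 0.08 (SD 1.30, 6 sgRNAs, adjusted p = 1), and the interaction was 2.55 (SD 2.70, adjusted p = 1). The baseline, vehicle and lapatinib comparisons share the vehicle libraries, so the values of this gene with and without drug are not independent.

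PTPN23 had the next lowest median in N87, -1.72 (SD over sgRNAs 1.62, adjusted p = 1), with 4 sgRNAs called lower and 1 higher. Next came PTPN21, a FERM-domain phosphatase known to bind Src, at -1.55 (SD 0.83, adjusted p = 0.947). The 6 PTPN21 sgRNAs averaged 155 and 149 normalized counts under vehicle and 60 and 71.3 with lapatinib in N87, and 152 and 152, then 125 and 128 in OE19. They ran from -2.97 to -0.40 in N87, and 5 of 6 passed the sgRNA threshold. The N87 vehicle and lapatinib values of the gene did not overlap, but it did not pass the gene test. At the other end PTPN5, a phosphatase of the brain, had a median of 1.01 (SD 1.17) in N87 and 0.19 in OE19.

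Phosphatases known to act on receptor kinases or their adaptors gave medians of either sign. PTPN1 (PTP1B), which dephosphorylates the insulin receptor and other receptor kinases, had a median of 0.66 (SD over sgRNAs 1.06) in N87 and 0.09 (SD 1.51) in OE19. Its normalized counts in OE19 averaged 350 and 346 under vehicle and 2135 and 809 with lapatinib. The high lapatinib values came from 2 of its sgRNAs, HGLibB_40381 at 3.07 and HGLibB_40380 at 2.13, neither past the threshold (adjusted p = 0.0656 and 0.108), while the other 4 lay between -0.63 and 0.27. PTPN2, a regulator of JAK and STAT signalling, was at 0.78 in N87 and -0.24 in OE19. PTPN12 was at 0.50 and 0.37, PTPN14, a partner of YAP, at 0.55 and 0.17, and PTPN6 (SHP1), best known in blood cells, at -0.70 and -0.21.

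Receptor-type enzymes had medians on both sides of that of all genes. The class median was 0.14 in N87 and -0.05 in OE19, beside -0.09 and -0.02 for all genes. PTPRM, a homophilic adhesion receptor, had the highest N87 median of the 60 at 1.08 (SD over sgRNAs 1.97), followed in the class by PTPRQ (0.97) and PTPRF (LAR, 0.95). In OE19 these were at -0.02, -0.25 and -0.09. The 6 PTPRF sgRNAs averaged 159 and 152 normalized counts under vehicle and 478 and 394 with lapatinib in N87, and 188 and 188, then 226 and 180 in OE19. Of these sgRNAs 4 were called higher in N87 and 0 lower, but the gene did not pass (adjusted p = 1).

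Some receptor genes had opposite signs in the lines, without a call for the difference. PTPRJ (DEP-1), which acts on growth factor receptors, was at -0.82 in N87 and 0.36 in OE19, and PTPRA, which activates Src kinases, at -0.46 and 0.45. PTPRK was above 0 in both on the main scale, at 0.10 and 0.17. Signs of small medians depend on the scale. The median of all genes in N87 was -0.09, but -0.62 by total counts and -0.37 by the control guides. For OE19 these medians were -0.02, -0.46 and 0.10. In OE19 the lowest median of the 60 was that of PTPRC, the CD45 antigen of white blood cells, at -0.66 (SD over sgRNAs 0.53, unadjusted p = 0.0131, adjusted p = 0.757 in the rank aggregation of edgeR p-values). Its mean normalized counts were 216 and 202 under vehicle and 155 and 178 with lapatinib in OE19, and 177 and 182, then 547 and 418 in N87. PTPRZ1, a neural receptor, was at -0.40 in OE19 with little spread between sgRNAs (SD 0.14).

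Among the DUSPs the clearest signal was 1 sgRNA of DUSP1 (MKP-1), an inducible nuclear MAP kinase phosphatase. sgRNA HGLibB_15106 had 131 and 119 normalized counts under vehicle and 1103 and 1119 with lapatinib in N87, a fold of 8.84. In OE19 it had 149 and 152 under vehicle and 2206 and 821 with lapatinib, a fold of 10.0. Its log2 fold changes of 3.10 and 3.30 (edgeR, adjusted p = 4.22e-08 and 0.00561) were the second highest of the phosphatase sgRNAs in N87 and the highest in OE19, and the interaction was 0.23 (adjusted p = 0.725). A further DUSP1 sgRNA, HGLibA_15126, was also higher in both lines, by 1.78 in N87 (adjusted p = 6.34e-06) and 1.45 in OE19 (0.0288). Calls in both lines stand beside the 31.2% of all sgRNAs called higher in N87, and HGLibB_15106 was picked as an extreme of these values. The remaining 4 DUSP1 sgRNAs ran from -1.22 to 1.08 in N87 and from -0.27 to 0.19 in OE19. The gene median was 0.37 (SD over sgRNAs 1.69, adjusted p = 0.926) in N87 and 0.18 (SD 1.34, adjusted p = 0.747) in OE19, so DUSP1 as a gene was not called in either.

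Of the other 4 phosphatase sgRNAs called higher in OE19, none was called higher in N87. PTPRH sgRNA HGLibB_40459 was at 3.20 in OE19, with 94.4 and 111 normalized counts under vehicle and 1483 and 447 with lapatinib, but at -1.54 in N87 (adjusted p = 0.00587). Those of PTPN12 (2.41), PTPN22 (1.79) and PTPRS (1.57) were at 0.10, -0.31 and -0.46 in N87, none of them past the threshold. For all 4 the interaction passed, with values from 2.06 to 4.77, as it did for 41.3% of the gene-targeting sgRNAs. These 4 were picked on the same values, so the interaction is a description here. In 5 of these 6 sgRNAs of OE19 the lapatinib replicate of lower depth, replicate 1, gave the higher normalized count.

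MAP kinase phosphatases and the other DUSPs gave similar medians. The 10 MAP kinase phosphatases had a median of 0.22 in N87 with lapatinib and 0.01 in OE19, and the 14 other DUSPs 0.08 and 0.07. In N87 9 of the 10 were above 0, beside 44.5% of all genes, and in OE19 5 of 10, beside 46.9%. The sign in N87 depends on the scale, since the median of the 10 was 0.24 by median-of-ratios, -0.31 by total counts (2 of 10 above 0) and -0.06 by the control guides (4 of 10). DUSP9 (MKP-4) had the highest of these medians in N87, 0.80 (SD over sgRNAs 1.50, unadjusted p = 0.00382, adjusted p = 0.713), with average normalized counts of 187 and 189 under vehicle and 494 and 447 with lapatinib, against 184 and 177, then 196 and 168 in OE19. DUSP4 was at 0.75 (SD 0.99) in N87 and 0.36 (SD 0.71) in OE19, DUSP5, a nuclear ERK phosphatase, at 0.32 and 0.10, and DUSP6, the cytoplasmic one, at 0.06 and 0.04. DUSP10, which prefers p38 and JNK, was the only one below 0 in N87, at -0.54, with -0.08 in OE19.

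Outside the MAP kinase phosphatases, DUSP14 showed how far sgRNAs of 1 gene could part. sgRNA HGLibA_15143 had 10 and 17 raw counts under vehicle and 192 and 188 with lapatinib in N87, a fold of 19.5 and a log2 fold change of 4.34, the highest of all phosphatase sgRNAs there. Yet 3 of the 6 DUSP14 sgRNAs were called lower, and the gene median was -0.22 (SD 2.27, adjusted p = 0.930 on the lower side). DUSP22, an atypical DUSP, was at -0.93 in N87 and -0.01 in OE19, DUSP11, an RNA phosphatase, at 0.17 and 0.11, and DUSP23 at 0.42 and 0.54, the last being the highest OE19 median of the 60. PTPN3 was almost level with it in OE19, at 0.541 beside 0.542. DUSP21 had the lowest OE19 median after PTPRC, at -0.455.

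Lapatinib effects of the lines were then set against each other, with the dose as part of the difference. No phosphatase gene was called, where 0.0191% of all genes were higher in OE19 than in N87 and 0% lower, and by DESeq2 none was either. At an unadjusted p under 0.05 2 were higher (DUSP14 and PTPRH) and 2 lower (DUSP9 and PTPRM), beside 1084 and 1073 of all 20889 genes. Of the sgRNAs 79 of 358 were higher and 68 lower, beside 20.7% and 20.5% of all sgRNAs, a split that became 112 and 51 on the scale of the control guides. By class 46 of 95 PTPN sgRNAs passed in either direction, 45 of 119 PTPR and 56 of 144 DUSP sgRNAs, beside 41.3% of the gene-targeting sgRNAs. Across the 60 genes the N87 and OE19 medians had a Pearson r of -0.08 and a Spearman rho of -0.12, given as a description over genes that share their sgRNAs.

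**Figure D4:**
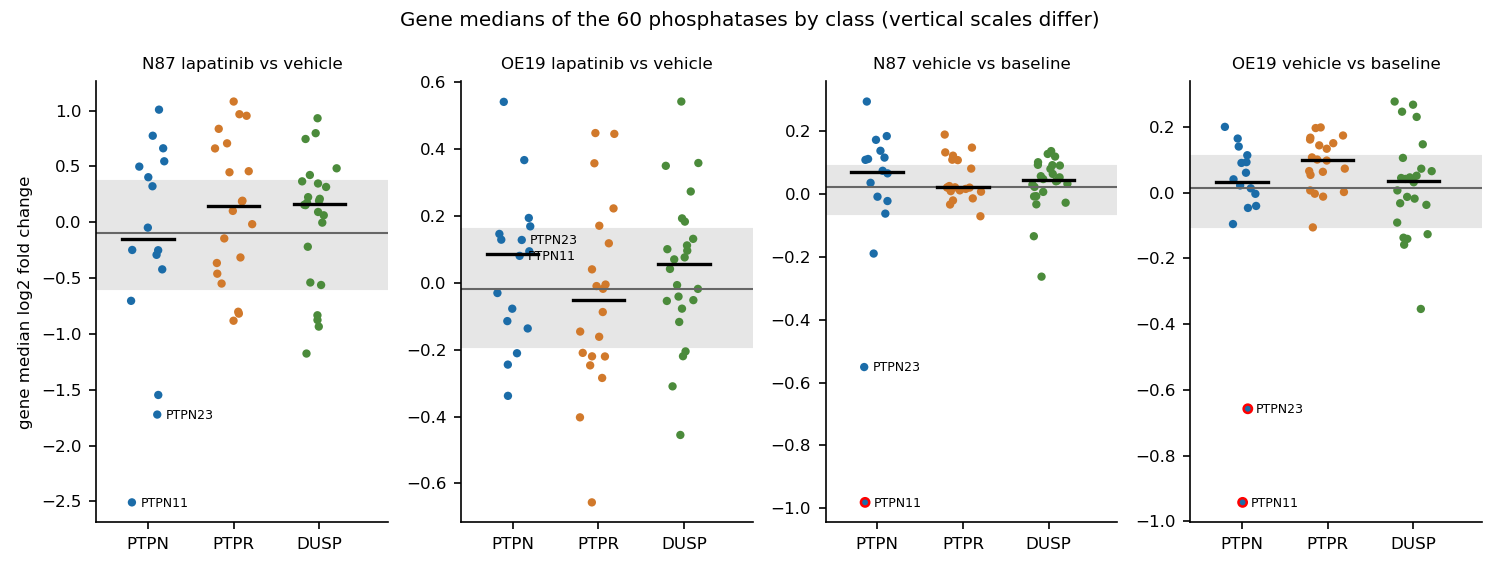
Median log2 fold change of each of the 60 phosphatases (points) in the 4 comparisons within a line, by class, with class medians as black bars, the median of all genes as a grey line and the middle range of all genes, from the lower to the upper quartile, in grey; red rims mark genes past the threshold. Most points lie around the grey band, and PTPN11 and PTPN23 lie lowest in both drug-free panels; the vertical scales differ.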

How the data were processed

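The 12 libraries were grouped by cell line and treatment from their labels. The authors deposited raw counts per sgRNA in 1 table, with no normalization. The submitters' processing notes name Bowtie2 2.3.2, FastQC 0.11.5 and MAGeCK 0.5.6. The phosphatases and the lists of related genes were chosen with earlier results of these data known.

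Counts were tested with edgeR 4.0.16 (limma 3.58.1, R 4.3.3) by its quasi-likelihood test with TMM factors, keeping sgRNAs with at least 40 counts over the 4 libraries of a comparison, or 80 over the 8 libraries of an interaction. For genes with at least 2 tested sgRNAs, one-sided p-values were ranked over all sgRNAs, and ranks under 0.05 were combined by robust rank aggregation in each direction. Control guides took part in the ranking but were not scored as a gene. Benjamini-Hochberg adjustment ran over all sgRNAs or all genes, with a threshold of 0.05. The value of a gene is the median log2 fold change over its sgRNAs, and its SD is over sgRNAs of the same libraries. Folds of single sgRNAs used mean normalized counts with a pseudocount of 1. The steps were tested on counts simulated for OE19 vehicle against baseline and for the drug-free interaction, with the same effect for all sgRNAs of a gene. No lapatinib comparison was simulated. Python 3.11.15, pandas 2.3.3, scipy 1.17.1 and matplotlib 3.10.9 made the tables and figures. Total depth is given in the report; low counts limit the precision of sgRNAs near the filter.

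Genes named with values were those past the gene threshold, the 3 highest and 3 lowest medians per comparison within a line, genes listed for their role, and genes of the 5 highest and 5 lowest sgRNAs with lapatinib. A few others, such as PTPRS and PTPN22, were named after their values were seen. Per the protocol, each line had 2 separate infections, and the transduced cells were treated after the baseline harvest, so replicate numbers most likely mark an infection shared over conditions. No label states this. Deviations of same-numbered libraries from their group means correlated at 0.06 (lapatinib and vehicle) and 0.24 (vehicle and baseline) in N87 and at 0.03 and 0.07 in OE19. The fit without the replicate block was kept as the main one, and numbers of phosphatase sgRNAs called with the block are given where they differ. Alternatives were other scalings, no count filter, ranks under 0.25, p-values from DESeq2 1.42.0, a replicate block, 1 fit of all 12 libraries, each library left out in turn, pseudocounts of 0.5 and 5, and shares without the 100 most abundant sgRNAs. The share without 2 PTPN1 sgRNAs and the MAP kinase phosphatase medians on other scales were added after seeing the data. Gene positions came from GENCODE on GRCh37 for 59 of the 60 genes. sgRNA sequences are not used here.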

Additional observations from a re-analysis of the deposited data

Results flagged for a closer look

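Of 19 phosphatase sgRNAs picked for the highest or lowest lapatinib change in either line, 13 passed the edgeR interaction test between OE19 and N87, which 41.3% of all gene-targeting sgRNAs also passed. They were picked on the same values, so the test is not independent of the choice and the values are a description. The values below are log2 differences, OE19 minus N87. Lower in N87 and near 0 in OE19 were PTPN11 HGLibA_47720 (3.25) and HGLibA_47721 (3.17), PTPRN HGLibA_47809 (3.03) and PTPN21 HGLibA_47745 (2.80). Higher in N87 and not called in OE19 were DUSP14 HGLibA_15143 (-4.37), DUSP9 HGLibA_15195 (-3.31), PTPRM HGLibB_40467 (-3.29), DUSP26 HGLibA_15170 (-3.18) and PTPN4 HGLibB_40418 (-2.73).

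In the other direction, PTPRH HGLibB_40459 (4.77) was called lower in N87 and higher in OE19, PTPN12 HGLibA_47724 (2.35) was called higher in OE19, and PTPN1 HGLibB_40381 (2.49) was called higher in N87 but not in OE19. The value of 7.32 for PTPN11 HGLibB_40383 rests on 0 and 1 counts in the N87 lapatinib libraries, so its size depends on the fit and is no bound. No phosphatase gene passed the same interaction test.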

How the results depend on the processing

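Of 3040 alternative values for named genes, 3032 kept their side of the threshold, 6 lost it, 2 gained it and no called value changed sign; the sign of values that were not called turned in 269. The number of phosphatase genes called stayed at 0 with lapatinib and in both interactions. Without drug it was 2 in N87 with ranks under 0.25, beside 12 higher and 836 lower of all 20894 genes. In OE19 it was 1 on the control-guide scale and 1 in the fit of all 12 libraries, beside 285 and 256 of all genes lower. It also moved in both lines when single libraries were left out. The number of sgRNAs called in OE19 with lapatinib was 10 by DESeq2, 27 in the fit of all 12 libraries and 0 to 54 with 1 library left out. In N87 with lapatinib and in the lapatinib interaction it moved when single libraries were left out, as did the number among all sgRNAs. Without drug it was 1 in N87 on the control-guide scale, 1 by DESeq2 and 0 to 19 with 1 library left out, 7 in OE19 on the control-guide scale, 0 in the fit of all 12 libraries and 0 to 94 with 1 library left out, and 0 to 3 in the drug-free interaction with 1 library left out. The cause was not tested.

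With the replicate number as a block, 3 sgRNAs were called in N87 without drug and 10 in OE19, the PTPR median minus that of all genes in N87 with lapatinib was 0.20 in place of 0.24, and no phosphatase gene call changed. With lapatinib the block gave 113 higher and 102 lower in N87, beside 38707 and 35498 of all 121902 sgRNAs. In OE19 it gave 7 higher and 0 lower, beside 2878 and 107 of all 121969. The lapatinib interaction gave 74 higher and 69 lower, beside 24115 and 24419 of all 122145.

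The median of a class minus that of all genes moved with single libraries. With 1 library left out it was -0.0233 to 0.0882 for PTPN and 0.19 to 0.26 for PTPR in N87 with lapatinib. In OE19 with lapatinib it was -0.00844 to 0.0851 for PTPN and -0.0830 to -0.00431 for PTPR, where total counts gave -0.0499 for PTPR. In the main fit the PTPN values with lapatinib, -0.0546 in N87 and 0.106 in OE19, lay outside these ranges. Those of PTPR, 0.24 in N87 and -0.0337 in OE19, lay inside. Without drug the ranges were 0.0157 to 0.0527 for PTPN and -0.00461 to 0.0590 for PTPR in N87. In OE19 they were 0.00922 to 0.0473 for PTPN, 0.0456 to 0.0652 for PTPR and -0.0470 to 0.0293 for DUSP genes. The main OE19 value for PTPR, 0.0850, lay above its range, and the other main values without drug lay inside theirs. Without the 100 most abundant sgRNAs the share of counts was, in N87, 0.308% for all phosphatases and 0.0783% for PTPN at baseline, 0.0786% for PTPN with vehicle, and 0.312%, 0.0766% (PTPN), 0.109% (PTPR) and 0.126% (DUSP) with lapatinib. In OE19 it was 0.103% for PTPR at baseline, 0.307% for all phosphatases with vehicle, and 0.304% for all and 0.0926% for PTPN with lapatinib.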
